A study of Mus musculus with 7 samples.

Results

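The Cyp4a fatty acid hydroxylases were examined in the livers of young male mice exposed to ethanol before birth. The family was defined by gene symbol as Cyp4a10, Cyp4a12a, Cyp4a12b, Cyp4a14 and Cyp4a31. A probe with a single current or older symbol was found for 4 of these 5 genes, 1 probe each, among the 45281 probes of the array. No probe used here carried the symbol of Cyp4a10, which was not analysed here. Total RNA from 7 livers was hybridised to Illumina mouse BeadArrays, glass slides that carry gene-specific probes on beads, with 1 array per liver. The ethanol group held 3 livers, and the treatment protocol gives free maternal drinking of 10% ethanol (v/v) from fertilization to gestational day 8.5. The control group held 4 livers. That protocol text stands on the control samples too, so the groups follow the sample titles, and what control dams drank is not described in it. All animals were C57BL/6J males at postnatal day 28. The labels do not tie animals to litters, so any spread given here is that between these 7 samples and may be too small if littermates shared a group.

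Cyp4a enzymes are cytochrome P450 monooxygenases of the endoplasmic reticulum that hydroxylate fatty acids at the far (omega) end of the chain. Alcohol and aldehyde dehydrogenases then turn the product into a dicarboxylic acid, which peroxisomes shorten by beta oxidation. In mouse liver Cyp4a10 and Cyp4a14 are classical targets of PPAR alpha, the nuclear receptor of fasting and lipid overload, and Cyp4a14 is higher in females. Cyp4a12a is expressed mainly in adult males, under androgen and growth hormone control, and is the mouse enzyme best known for the omega hydroxylation of arachidonic acid. The genes lie in a cluster on chromosome 4, and in the RefSeq gene table of assembly GRCm38.p6, used here for names and order only, they run Cyp4a12a, Cyp4a12b, Cyp4a30b, Cyp4a14, Cyp4a10, Cyp4a31 and Cyp4a32.

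The arrays resembled each other closely. Over tested probes the correlation of log2 levels was 0.988 to 0.990 between ethanol livers, 0.987 to 0.995 between control livers and 0.981 to 0.992 across groups, where probes are not independent replicates. Of 13 hepatocyte markers 11 were above background on every array, while 8 of 9 markers of kidney proximal tubule, another site of Cyp4a expression, were above background on none. A probe was called above background when it was brighter than 3 noise SDs of its array, a limit of 21.3 to 26.9 intensity units. Summed intensities of hepatocyte markers ran from 316848 to 336633 in ethanol livers and from 277509 to 327969 in control livers. Those of 10 Kupffer cell and macrophage markers ran from 5958 to 9629 in ethanol livers and from 6375 to 7264 in control livers, with ethanol 3 lowest. Those of 10 stellate cell and fibroblast markers, of which Dcn was brightest, ran from 8014 to 8757 in ethanol livers and from 8833 to 11624 in control livers. Of the 9 marker lists examined this was the one whose groups did not overlap. Only 5 of these 10 markers were above background on every array, and 2 on none. All such sums add deposited intensities without normalization between arrays, so the brightest probes weigh most. The part of these cells in the results was not tested. In whole tissue, a difference in the number of cells of a type and in RNA per cell cannot be told apart.

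Cyp4a12a and Cyp4a12b were far higher in ethanol livers than in control livers, while Cyp4a14 and Cyp4a31 had similar means in both groups. These members were proposed with this comparison in view, so their differences are descriptions and carry no test. The intensity of a probe depends on its own sequence, and levels are therefore compared between livers and never between probes.

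Cyp4a12a, the male-predominant hydroxylase, had deposited intensities of 763, 3466 and 7503 in ethanol livers 1, 2 and 3. In control livers 1 to 4 the same probe gave 27.8, 52.7, 118 and 12.9, and control 4 was below the background limit. The groups did not overlap, and the lowest ethanol liver was 6.48-fold above the highest control liver. The mean was 3911 ± 3392 (SD, n = 3) in ethanol livers and 52.8 ± 46.3 (SD, n = 4) in control livers, a ratio of means of 74.1. After the normexp correction, which models background and adds 50 units, and quantile normalization, the log2 difference was 4.58 ± 0.58 (SE), the largest of the 23829 probes tested. Such offset values understate the change of dim probes.

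Cyp4a12b, a near-identical neighbour that forms a tandem pair with Cyp4a12a, had intensities of 278, 808 and 2530 in ethanol livers 1, 2 and 3. In control livers 1 to 4 it gave 10.7, 19.3, 54.8 and 4.72, and control 3 alone was above background. Again no ethanol liver lay within the control range, and the lowest ethanol liver was 5.07-fold above the highest control liver. The mean was 1205 ± 1177 (SD, n = 3) in ethanol livers and 22.4 ± 22.4 (SD, n = 4) in control livers. Its log2 difference was 3.36 ± 0.51 (SE), rank 2 from the top among tested probes when differences are ordered by sign, while Sult2a2, a female-biased sulfotransferase, lay further from 0 at -3.79. Both this difference and a ratio of means are uncertain for Cyp4a12b because 3 of 4 control livers gave no signal above background.

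Both Cyp4a12 probes ordered the 7 livers in the same way. Ethanol 3 was highest, then ethanol 2, ethanol 1, control 3, control 2, control 1 and control 4. Their log2 levels had a Pearson r of 0.993 over the 7 livers, and of 0.975 when each liver was taken relative to its group mean. Both are descriptions. Close sequence relatives can bind each other's RNA, so the pair does not give independent readings, and the share of signal from each gene was not tested.

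The exposed animals differed widely among themselves. For Cyp4a12a the highest ethanol liver was 9.84-fold above the lowest, and for Cyp4a12b 9.11-fold. The corresponding control spans were 9.10-fold and 11.6-fold, at intensities near background. On the log2 scale the SD between ethanol livers was 1.62 for Cyp4a12a and 1.48 for Cyp4a12b, where the median over all tested probes was 0.12, and more than 99.9% of tested probes had a smaller SD in this group. All exposed livers therefore stood above all control livers, but by amounts from 2.84 (ethanol 1) through 4.85 (ethanol 2) to 6.05 (ethanol 3) log2 units over the control mean for Cyp4a12a. For Cyp4a12b these were 1.93, 3.25 and 4.89.

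**Figure D1:**
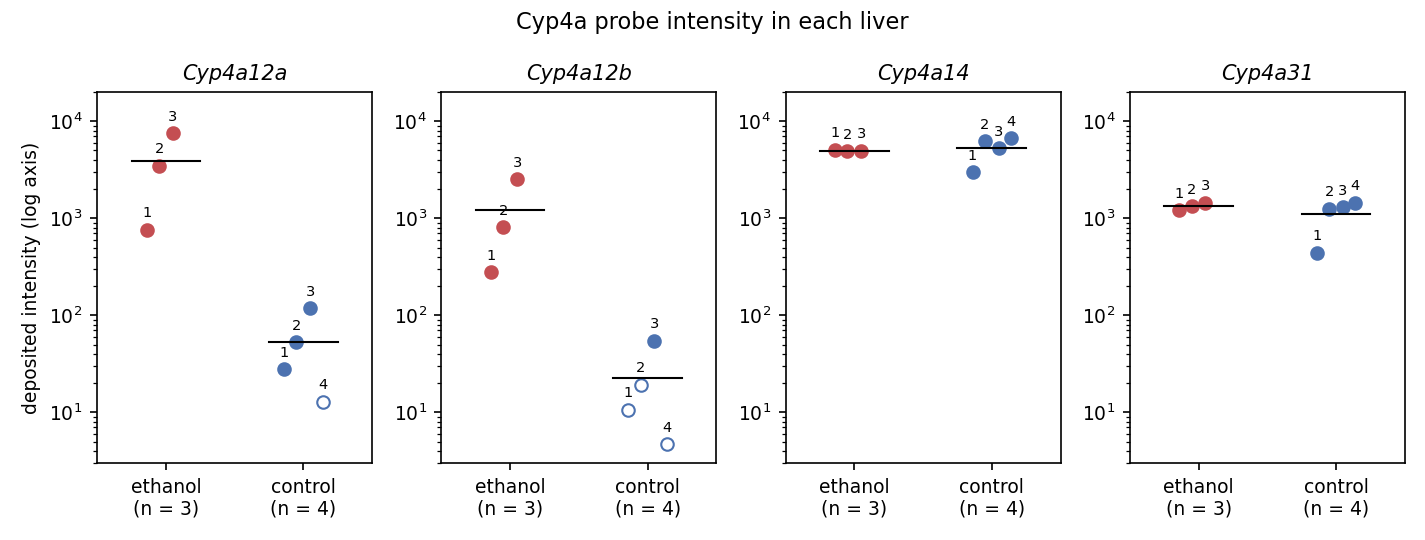
Deposited intensity of each Cyp4a probe (log axis) in 3 ethanol and 4 control livers, numbered by replicate. Filled points were above background, open points were not, and bars are group means. Ethanol livers lie above all controls for Cyp4a12a and Cyp4a12b, while for Cyp4a14 and Cyp4a31 the groups overlap and control 1 lies lowest.

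Cyp4a14, the PPAR alpha-inducible and female-biased member, was bright in every liver. Its intensities were 5053, 4911 and 4965 in ethanol livers 1, 2 and 3, and 2996, 6218, 5279 and 6648 in control livers 1 to 4. The mean was 4976 ± 71.6 (SD, n = 3) in ethanol livers and 5285 ± 1630 (SD, n = 4) in control livers, with a log2 difference of -0.04 ± 0.21 (SE). The ethanol livers were nearly alike, with a coefficient of variation of 1.44%, against 30.8% in control livers, most of which came from control 1. Without control 1 the control mean was 6048 ± 700 (SD, n = 3), all 3 ethanol livers lay below the remaining controls, and the log2 difference was -0.28 ± 0.11 (SE). In that setting 6.59% of tested probes had all ethanol values below all control values, and 5.95% had them all above.

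Cyp4a31, a close relative of Cyp4a10, had intensities of 1208, 1332 and 1447 in ethanol livers 1, 2 and 3. In control livers 1 to 4 it had 439, 1258, 1298 and 1439, so control 1 lay far below the other controls, which were alike. The mean was 1329 ± 120 (SD, n = 3) in ethanol livers and 1108 ± 453 (SD, n = 4) in control livers, with a log2 difference of 0.37 ± 0.30 (SE). That difference rested on control 1. Without that liver the control mean was 1332 ± 94.9 (SD, n = 3) and the log2 difference 0.02 ± 0.11 (SE).

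Of the 4 member probes, 2 had all ethanol values above all control values, as did 4.12% of tested probes, 0 had all of them below, as did 4.6%, and 2 overlapped, as did 91.3%. Without normalization between arrays the balance over all tested probes turned, with 1249 probes higher and 850 lower against 981 and 1095 with it. A log2 difference of at least 1 was reached by the same 2 members and by 0.113% of tested probes. All 4 member probes passed the filter on dim probes, which asked that 3 or more arrays give a value over their own median. The Cyp4a12 probes are near background in control livers and the family was chosen on this comparison, so nothing is read from these counts.

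Cyp4a14 and Cyp4a31 followed each other and not the Cyp4a12 pair. Their log2 levels had r = 0.867 over the 7 livers, but 0.14 over the 6 livers without control 1, so the likeness lay in that liver. Cyp4a14 had r = -0.06 with Cyp4a12a and r = -0.06 with Cyp4a12b. Cyp4a31 had r = 0.41 with each of them. Without control 1, Cyp4a14 had r = -0.84 with Cyp4a12a and r = -0.79 with Cyp4a12b. All probes share the same arrays and the same normalization, and these values are descriptions over 7 samples. The Cyp4a12 pair thus differed widely between exposed animals. It did so between controls as well, where 99.1% (Cyp4a12a) and 96.7% (Cyp4a12b) of tested probes had a smaller SD on the log2 scale. Cyp4a14 and Cyp4a31 were both low in 1 control. Between ethanol livers Cyp4a14 was steady, with 17.3% of tested probes having a smaller SD, while for Cyp4a31 this share was 59.4%.

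**Figure D2:**
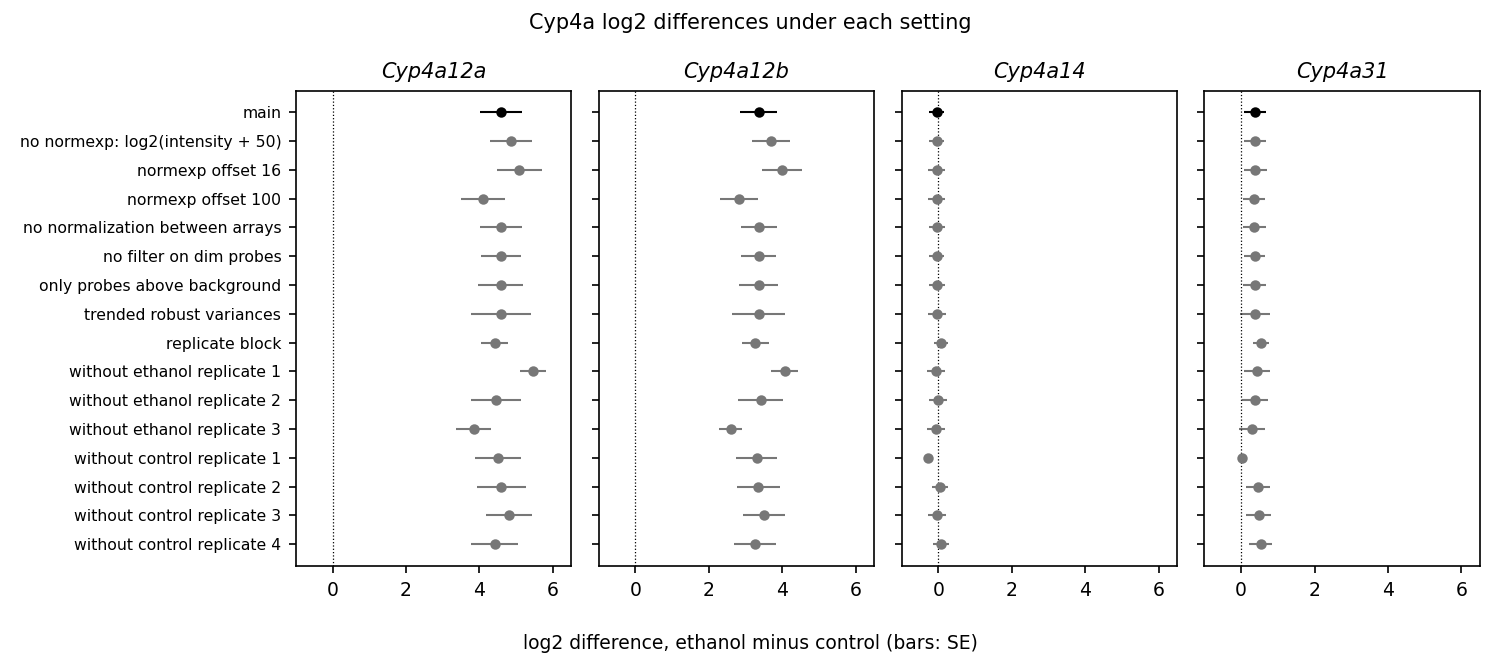
Log2 difference (ethanol minus control, points, with SE as bars) of each Cyp4a member under the main setting (black) and under 15 other settings (grey), given in the rows. Cyp4a12a and Cyp4a12b stay at or above 2.59 in every setting shown, while Cyp4a14 and Cyp4a31 move towards lower values without control replicate 1.

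The genes whose levels ran most like each member were named by the highest Pearson r over the 7 livers, with all members left out. For Cyp4a12a these were Ubl7 (r = 0.992), Rhog, a small GTPase (0.989), Scp2, a peroxisomal sterol carrier and thiolase (0.989), Pigr, the receptor for polymeric immunoglobulin (0.981), and Haus8, a spindle protein (0.976). Cyp4a12b shared Ubl7 (0.999), Rhog (0.985) and Scp2 (0.985), followed by Cdhr5, a brush border cadherin (0.981), and C6, a male-biased complement component (0.979). These genes moved over a far narrower range than the Cyp4a12 probes. Ubl7 had 868, 964 and 1027 in ethanol livers 1, 2 and 3, and 763, 803, 824 and 764 in control livers 1 to 4, a log2 difference of 0.25 ± 0.09 (SE). C6 had 282, 391 and 814 in ethanol livers 1, 2 and 3, and 180, 185, 192 and 145 in control livers 1 to 4, a log2 difference of 1.10 ± 0.25 (SE). In both, all ethanol values lay above all control values, and neither passed limma's test over all probes (adjusted p 0.472 for Ubl7 and 0.336 for C6).

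The genes most like Cyp4a14 were Tmem205, a small membrane protein (r = 0.989), Ednrb, an endothelin receptor (0.961), Aqp9, the glycerol channel of hepatocytes (0.953), Prr23a3 (0.952) and Marchf6, a ubiquitin ligase of the endoplasmic reticulum (0.946). For Cyp4a31 they were Hspb6, a small heat shock protein (0.977), Tpbgl (0.972), Cyp2d22, a P450 (0.972), Serpina9 (0.971) and Nprl3, part of a complex that restrains mTORC1 (0.968). Each of these 10 genes was lower in control 1 than the mean of the other controls, with log2 differences between -0.22 (Tmem205) and -1.35 (Tpbgl). Prr23a3 was not above background in any liver, so its likeness is between values at background. No gene of the Cyp4a14 set or of the Cyp4a31 set was named again when control 1 was left out. Over so many probes and 7 livers, high r values arise easily, and nothing about shared control is read from them.

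Other tested members of the P450 family 4 did not show the difference of the Cyp4a12 genes. These and the following lists were written with earlier results of these data known, with 1 probe per gene, and limma's adjusted p below 0.05 over all tested probes counted as passing. By that rule 5 of all tested probes passed (0.021%), 2 as higher (0.00839%) and 3 as lower (0.0126%), as did 0.0313% of the 12769 tested genes. Of these genes 49.5% had a positive and 50.5% a negative log2 difference. An unadjusted p under 0.05 was reached by 2096 of the 23829 tested probes, a count over probes and not over 1 probe per gene. These values over all probes or genes are the background for the counts of each list below. Some genes stand in more than 1 list, so the counts of different lists are not separate observations. Of 9 other Cyp4 genes tested, 0 passed (2 at an unadjusted p under 0.05), 6 had a positive and 3 a negative log2 difference, and the median was 0.03, against 0.00 over all tested genes. Cyp4v3, a hydroxylase of medium-chain and polyunsaturated fatty acids, had 4055, 4437 and 4897 in ethanol livers 1, 2 and 3, and 2288, 3526, 3659 and 3228 in control livers 1 to 4. Its groups did not overlap, but the log2 difference of 0.47 ± 0.14 (SE) did not pass (adjusted p 0.429). Cyp4f14, which hydroxylates leukotriene B and vitamin E side chains, had a mean of 10609 ± 1264 (SD, n = 3) in ethanol livers and 9338 ± 751 (SD, n = 4) in control livers, with overlapping groups and an adjusted p of 0.731. Cyp4f18, a neutrophil leukotriene hydroxylase, was not above background in any liver, nor were Cyp4f39 and Cyp4f40, so these genes could show little. Cyp4f17 and Cyp4x1 were on the array but did not pass the filter on dim probes. Cyp4a28, Cyp4a29, Cyp4a30b, Cyp4a32 and Cyp4f37 had no probe under these names.

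Genes beside the cluster did not share the difference either. Of 14 neighbours tested, 0 passed, 0 had an unadjusted p under 0.05 and 0 had groups that did not overlap, and their log2 differences ran only from -0.13 to 0.08 with a median of -0.01. Cyp4b1, the next P450 after the Cyp4a genes, had 112 in ethanol livers and 121 in control livers as mean intensities (log2 difference -0.07 ± 0.11, SE, adjusted p 0.895). Pdzk1ip1, a small membrane protein on the other side, had mean intensities of 291 in ethanol livers and 292 in control livers (0.08 ± 0.23, SE, adjusted p 0.950), but it was high in control 1, by 1.06 log2 units over the other controls, the liver in which Cyp4a14 was low. Nsun4, an RNA methyltransferase of mitochondria, had the largest moderated statistic of the list, with a log2 difference of -0.13 ± 0.08 (SE, adjusted p 0.702). Tal1 and Foxe3, the next by that measure, were not above background in any ethanol liver.

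The tested enzymes that act with and after the omega hydroxylases had small differences. Of 11 electron donors and dehydrogenases tested, 0 passed (1 unadjusted), 7 were positive and 4 negative, and the median was 0.05. Por, a listed electron donor, had no probe under this name and was not measured. Aldh9a1 was on the array but did not pass the filter on dim probes. Cyb5r3, the reductase that feeds electrons to cytochrome b5, had a mean of 5940 ± 276 (SD, n = 3) in ethanol livers and 4959 ± 630 (SD, n = 4) in control livers (log2 difference 0.24 ± 0.10, SE, adjusted p 0.556), while a dimmer tested probe of it gave 0.70. Adh7, an alcohol dehydrogenase, had -0.31 ± 0.15 and Adh4, an alcohol dehydrogenase that oxidises omega-hydroxy fatty acids, 0.35 ± 0.17 (SE, adjusted p 0.587 and 0.593). Aldh3a2, the fatty aldehyde dehydrogenase of the pathway and named after its values were seen, had -0.20 ± 0.13 (SE, adjusted p 0.716).

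Of 25 genes of peroxisomal import and oxidation tested, 0 passed (7 unadjusted), 11 were positive and 14 negative, and the median log2 difference was -0.06. Ehhadh, the bifunctional enzyme of peroxisomal beta oxidation, had 451, 548 and 615 in ethanol livers 1, 2 and 3, and 795, 705, 777 and 784 in control livers 1 to 4. All ethanol values were below all control values, and the log2 difference of -0.46 ± 0.11 (SE) did not pass (adjusted p 0.354). Acot12, an acetyl-CoA thioesterase, had -0.43 ± 0.11 (SE, adjusted p 0.392). Abcd2, a peroxisomal transporter of very long chain acyl-CoA that is female-biased in mouse liver, had -0.85 ± 0.27 (SE, adjusted p 0.456), and a second tested probe of it gave -0.48. In this list 2 genes were higher and 4 lower without overlap, beside 4.17% and 4.8% of all tested genes. Ehhadh, Acaa1b, Acot3, Ech1, Eci2 and Pex11a are counted again among the PPAR alpha targets. Abcd2 and Acot3 are counted again among the female-biased genes, and Nudt7 among the male-biased genes.

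PPAR alpha itself and its targets were compared because Cyp4a14 is among the genes it induces most strongly. Ppara had 72.3, 67.8 and 59.5 in ethanol livers 1, 2 and 3, and 100, 146, 93.9 and 81.0 in control livers 1 to 4. Its ethanol values all lay below its control values, with a log2 difference of -0.34 ± 0.12 (SE) that did not pass (adjusted p 0.472). Of 15 receptors, partners and coregulators tested, 0 passed (5 unadjusted), 6 were positive and 9 negative. Pparg, the related receptor of fat storage, had -0.48 ± 0.08 (SE, adjusted p 0.166), though another tested probe of it gave -0.08, and Ep300, a histone acetyltransferase, had -0.50 ± 0.11 (SE, adjusted p 0.293) with another at -0.15.

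Of 28 tested PPAR alpha targets outside the family, 0 passed (4 unadjusted), 8 were positive and 20 negative, and the median log2 difference was -0.09. Among the negative ones, Ucp3 was not above background in any liver, and Cidea, Acot2 and Cpt1b only in some, so these could show little. Besides Ehhadh, the leading members were Hadhb, a subunit of the mitochondrial trifunctional protein (-0.32 ± 0.08, SE, adjusted p 0.392), and Fgf21, the fasting hormone of the liver (-0.83 ± 0.25, SE, adjusted p 0.433). Acaa1b, a peroxisomal thiolase named after its values were seen, had mean intensities of 22307 in ethanol livers and 22428 in control livers. With all livers, Cyp4a14 at -0.04 lay close to the middle of these genes, and Cyp4a12a and Cyp4a12b lay outside their range of -1.05 to 0.39. Without control 1 the difference of Cyp4a14 was -0.28.

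Control 1, the liver with little Cyp4a14 and Cyp4a31, was also low in several of these targets. Set against the mean of control livers 2 to 4, its log2 level was -0.94 for Cyp4a14 and -1.42 for Cyp4a31, and 0.368% and 0.0783% of tested genes were lower still. Angptl4, a fasting-induced lipase inhibitor chosen after its values were seen, had 1966 to 3975 in ethanol livers, and 946 in control 1 beside 2793 to 3288 in the other controls. Plin2, the lipid droplet coat protein, chosen in the same way, had 919 to 1327 in ethanol livers, and 820 in control 1 beside 1217 to 1572 in the other controls. Fgf21, in contrast, had 126 to 223 in ethanol livers and was highest in control 1, with 603 there and 207 to 359 in the other controls. Of the 28 targets 22 (78.6%) were lower in control 1 than the mean of controls 2 to 4, with a median of -0.14. The dim genes Ucp3, Cidea, Acot2 and Cpt1b were among these 22 in control 1. Of all tested genes 47.7% were lower there, with a median of 0.01. In the other lists of this report the share ran from 37.5% (female-biased genes) to 83.3% (arachidonate genes). Of the targets 20 to 22 were also lower in each ethanol liver, and 18 and 19 in controls 3 and 4. Control 2 was the liver with the higher levels, where 6 were lower.

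**Figure D3:**
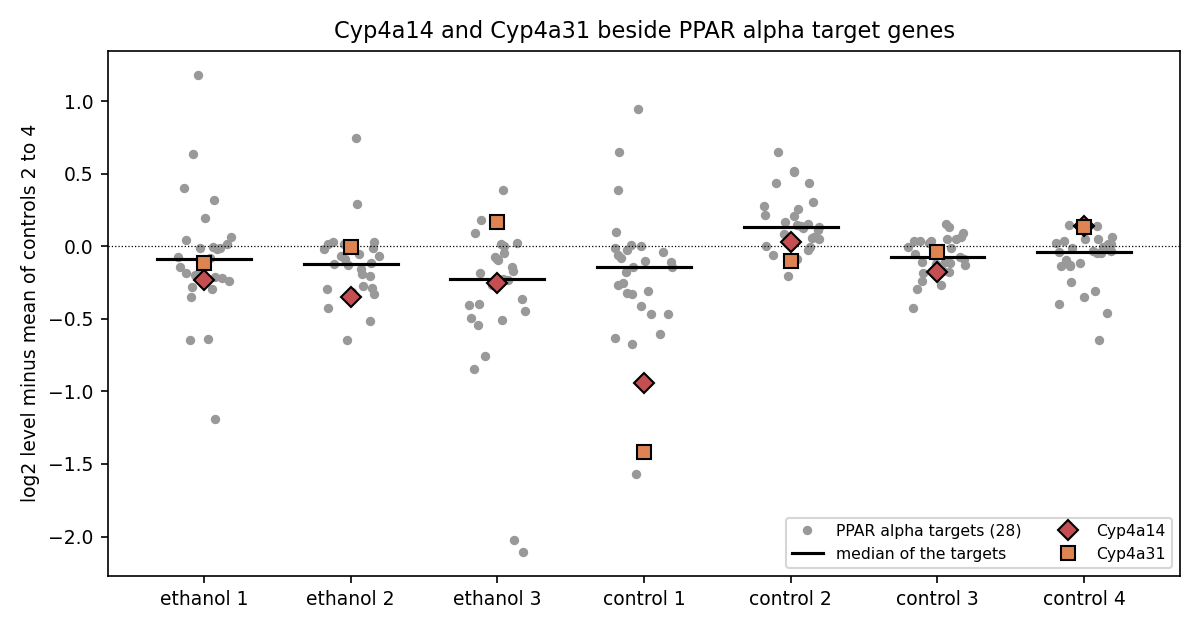
Log2 level of Cyp4a14 (diamonds), Cyp4a31 (squares) and 28 PPAR alpha target genes (grey points, median as a bar) in each liver, relative to the mean of control livers 2 to 4. Both members fall to -0.94 and -1.42 in control 1, near the lower end of the targets, and stay between -0.35 and 0.17 in the other 6 livers.

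Arachidonic acid, a substrate of Cyp4a12a, is also oxidised by epoxygenases of the Cyp2c and Cyp2j families. The list of arachidonate genes also held the epoxide hydrolases Ephx1 and Ephx2 and the lipoxygenases Alox5 and Alox12. Of its 12 tested genes, 0 passed (4 unadjusted, Ephx1 and Ephx2 among them), 7 were positive and 5 negative. The median log2 difference was 0.09. Cyp2j5, Cyp2j6, Cyp2c38, Cyp2c40, Ptgs2, Alox15 and Pla2g4a did not pass the filter on dim probes, and Ptgs1 had no probe. Cyp2j9 alone therefore stood for the Cyp2j family. Cyp2c23, named Cyp2c44 in older work and a hepatic and renal epoxygenase, had 10630, 9169 and 11292 in ethanol livers 1, 2 and 3, and 6915, 7554, 7994 and 7443 in control livers 1 to 4. These groups did not overlap, and the log2 difference of 0.43 ± 0.10 (SE) did not pass (adjusted p 0.336). Ephx1, a microsomal epoxide hydrolase, had 0.41 ± 0.14 and Cyp2c54 0.53 ± 0.20 (SE, adjusted p 0.472 and 0.517).

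Cyp4a12a and Cyp4a14 belong to opposite sides of the sex difference in mouse liver, which the pattern of growth hormone secretion sets in large part. Of 25 other male-biased genes tested, 0 passed and 21 had an unadjusted p under 0.05 (limma), beside 2096 of the 23829 tested probes. A positive log2 difference was found in 24 and a negative in 1, beside 49.5% and 50.5% of all tested genes. The median of the list was 0.55, and 12 had all ethanol values above all control values, as did 4.17% of all tested genes. Mup20, a urinary pheromone protein, had 464, 1422 and 2684 in ethanol livers 1, 2 and 3, and 36.2, 143, 307 and 138 in control livers 1 to 4, the same order of exposed animals as for Cyp4a12a. Its log2 difference of 2.67 ± 0.50 (SE) did not pass (adjusted p 0.233), nor did that of Gstp1, a glutathione transferase (0.70 ± 0.16, SE, adjusted p 0.320), of which other tested probes gave 0.60 and 0.35. Mup21 did not share that order, with 1222, 1146 and 4713 in ethanol livers 1, 2 and 3, and 493, 429, 611 and 391 in control livers 1 to 4 (1.85 ± 0.39, SE, adjusted p 0.293). The difference of both Cyp4a12 probes was larger than that of every gene in this list, whose highest was 2.74.

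Of 24 other female-biased genes tested, 1 passed as lower, and 12 had an unadjusted p under 0.05 in either direction (limma). A positive log2 difference was found in 5 and a negative in 19, beside 49.5% and 50.5% of all tested genes. The median of the list was -0.75, and 11 had all ethanol values below all control values, as did 4.8% of all tested genes. The gene that passed was Sult2a1, a steroid and bile acid sulfotransferase, with 5.19, 17.5 and -6.33 in ethanol livers 1, 2 and 3, none above background, and 150, 92.2, 92.0 and 191 in control livers 1 to 4. It was at least 2.05-fold lower in ethanol livers, a bound taken from the dimmest detectable probe of each ethanol array (limma, adjusted p 0.0394). That call was lost when any liver but ethanol 1 was left out (adjusted p 0.105 to 0.181). Hamp2, a hepcidin paralog, had -0.88 ± 0.13 (SE, adjusted p 0.110) and Vldlr, a lipoprotein receptor, -0.90 ± 0.14 (SE, adjusted p 0.132), with other tested probes of Vldlr at -0.59 and -0.62. Cyp4a14, which shares the female bias as background, had -0.04 beside this median and overlapping groups. Without control 1 it had -0.28 and all its ethanol values lay below its control values, as did 6.59% of tested probes.

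Growth hormone signalling genes gave 0 of 23 past the test (2 unadjusted), with 11 positive, 12 negative and a median of -0.01. Socs2, a feedback inhibitor of the growth hormone receptor, had 1107, 1418 and 696 in ethanol livers 1, 2 and 3, and 3488, 3696, 2283 and 2723 in control livers 1 to 4 (log2 difference -1.48 ± 0.21, SE, adjusted p 0.0864). Its groups did not overlap, and ethanol 3, highest in Cyp4a12a, was lowest in Socs2. The other ethanol livers did not follow a reverse order, since ethanol 2 was above ethanol 1 in both genes. Igfals, a carrier subunit of IGF, had 0.41 ± 0.12 and Tox, a female-biased transcriptional regulator, -0.32 ± 0.16 (SE, adjusted p 0.435 and 0.605). Ghr, the receptor, had mean intensities of 5004 in ethanol livers and 4941 in control livers and was named after its values were seen.

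**Figure D4:**
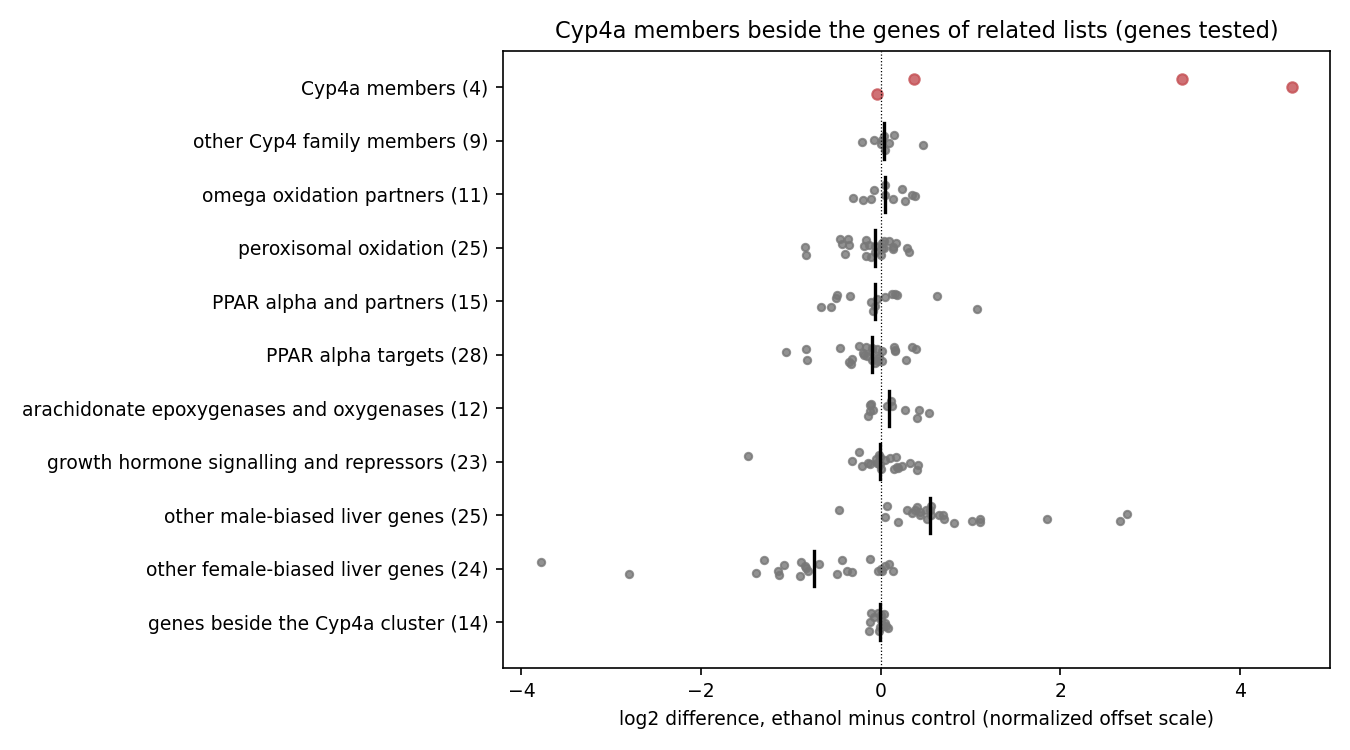
Log2 difference (ethanol minus control) of the 4 Cyp4a members (red) and of every tested gene in 10 related lists (grey, median as a bar), with the number tested in brackets. Cyp4a12a at 4.58 and Cyp4a12b at 3.36 lie to the right of every listed gene, while Cyp4a14 and Cyp4a31 lie among the PPAR alpha targets.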

How the data were processed

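Background-subtracted intensity values of 7 arrays were used as deposited by the authors, in linear units. GenomeStudio is named in the notes of the submitters, without a version or options. A second deposited table of 14 columns was not used, since its column names matched no sample. Values were corrected with normexp (offset 50), put on the log2 scale and quantile normalized in limma 3.58.1 (R 4.3.3). Probes over the median of 3 or more arrays were tested, 23829 in all. Ethanol was compared with control by lmFit and eBayes (two-sided test), and p-values were adjusted over these probes by the Benjamini-Hochberg method, with a threshold of 0.05. The fit was also run on simulated data with the same spread in both groups, unlike the spread of the Cyp4a12 probes. Nothing in this report rests on that check. Intensities say how bright a probe was, and the number of arrays limits the precision.

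Symbols came from the platform annotation (34885 probes with 1 symbol, 18 with several, 10378 with none), and 34807 were updated through the gene ID in RefSeq's GRCm38.p6 table. The brightest tested probe stood for a gene in lists. The members and lists were chosen with earlier results of these data known. Named genes were all member probes, from each list every gene past the threshold and then the largest moderated statistics until 3 were named, and the 5 genes with the highest r for each member. No chance test over lists was made. Replicate numbers only number the samples. Deviations of same-numbered animals from their group means correlated at -0.19, 0.09 and 0.20. Alternatives covered the background correction, its offset, the normalization, the filter, the variance model, a replicate block and leaving out each animal.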

Additional observations from a re-analysis of the deposited data

Results flagged for a closer look

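A single control liver stood apart in 5 of 50 genes examined, by Dixon's ratio of the gap to the range over the 4 control livers on the log2 scale, against its critical value for 4 samples. Chance alone sets about 1 in 20 such groups apart. All 5 cases were control 1. Cyp4a31 was low there, at 439 against 1258 to 1439 in the other controls (ratio 0.849). Adh4, the alcohol dehydrogenase, was low at 1866 against 2821 to 3057 (0.887). Tpbgl was low at 135 against 442 to 484 (0.921). Prr23a3 was low at -10.2 against 11.0 to 16.4, all below background (0.854). Pparg was high at 315 against 280 to 287 (0.897). Tpbgl and Prr23a3 had been named for their likeness to Cyp4a31 and Cyp4a14, so their low value in the same liver is no separate observation. The 3 ethanol livers were too few for this check.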

How the results depend on the processing

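When 1 animal was left out, the log2 difference ran from 3.85 (without ethanol 3) to 5.45 (without ethanol 1) for Cyp4a12a, 2.59 to 4.07 for Cyp4a12b in the same settings, -0.28 (without control 1) to 0.08 for Cyp4a14 and 0.02 (without control 1) to 0.54 for Cyp4a31. In the other 8 settings it ran from 4.09 to 5.09, 2.82 to 3.98, -0.04 to 0.08 and 0.35 to 0.54 for these genes in turn. The sign of Cyp4a14 was not stable, and its value was 0.08 with the replicate block. The 5 probes past the threshold (2 higher, 3 lower) became 3 (1 higher) with offset 16, 0 (0 and 0) with offset 100, 8 (4 higher) without a filter, 0 with probes above background only, 1 (1 higher, 0 lower) with trended robust variances and 24 (14 higher, 10 lower) with the replicate block, where the numbers only name samples. Without 1 animal the count ran from 0 (without control 1, 3 or 4) to 27 (without ethanol 1), with 0 to 14 higher and 0 to 13 lower. Where limma gave 0, an unadjusted p under 0.05 was reached by 1495 (above background only) to 2135 (offset 100) probes. With the replicate block 1 growth hormone gene (Socs2, as without a filter), 2 male-biased and 2 female-biased genes passed. No female-biased gene passed with offset 100, above background only or with trended variances. Without 1 animal 0 to 2 female-biased and 0 to 3 male-biased genes passed. Probes without overlap numbered 1638 higher and 1708 lower without a filter, 1249 and 850 without normalization between arrays, and without 1 animal 1345 to 2240 higher and 1508 to 2310 lower, since fewer values overlap less. List medians that moved were 0.17 for omega oxidation partners without normalization between arrays, and -0.019 for PPAR alpha partners and -0.40 for female-biased genes without a filter. Without 1 animal they ran from -0.066 (without control 1) to 0.17 for arachidonate genes, -0.018 to 0.055 for other Cyp4 genes and -0.82 to -0.28 (without ethanol 3) for female-biased genes. Those of peroxisomal genes reached -0.13 (without ethanol 1), PPAR alpha targets -0.15 (without ethanol 2), PPAR alpha partners -0.033 (without control 4), cluster neighbours -0.031 (without control 2), growth hormone genes 0.058 (without ethanol 2) and omega oxidation partners 0.10 (without control 4). Of the 5 genes most like each member, those named again were 3 for Cyp4a12b with offset 100, 2, 3, 3 and 3 (Cyp4a12a, Cyp4a12b, Cyp4a14, Cyp4a31) without normalization and 2 for Cyp4a14 without a filter. Without 1 animal they were 1 to 4, 1 to 3, 0 to 2 and 0 to 2, so these names are unsteady. The r of Cyp4a14 with Cyp4a31 ran from 0.13 (without control 1, normalized anew) to 0.91. Of the genes named from lists, Sult2a1 also lost its call with offset 100 (adjusted p 0.239), above background only (0.0665) and with trended variances (0.0547). Calls were gained by Mup20 (adjusted p 0.00125 with the replicate block, 0.0278 without ethanol 1), Gstp1 and Vldlr (0.0470 each, without ethanol 1) and Hamp2 (0.0428, without control 2). The cause of these moves was not tested. Signals near background limit the Cyp4a12 values in control livers.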
